A study of Homo sapiens with 6 samples.

Results

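The mitochondrial ribosomal protein genes were taken as every protein-coding row of the gene table whose symbol starts with MRPL or MRPS followed by a digit. This rule gave 78 genes of 60504 in the table, 19664 of them protein-coding. It used gene names alone and no measured value. RNA-seq counts of these genes were compared between 3 libraries with an empty expression vector (EV 1, EV 2 and EV 3) and 3 libraries with an HDAC8 expression vector (HDAC8 1, HDAC8 2 and HDAC8 3). Both groups were WM164, a human melanoma cell line of BRAFV600E genotype, and the transfected cells of both were kept in hygromycin. HDAC8 is a class I histone deacetylase. The labels number the libraries of each group as biological replicates without saying whether they were separate cultures or clones, so the p-values measure the spread between these libraries, which may be technical.

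Total counts ran from 34741083 to 42041462 per library. Of 6 melanoma markers, SOX10, MITF, PMEL, DCT, TYR and MLANA, all were counted in every library, with a lowest value of 6.62 CPM (counts scaled to the library total) for MLANA. EPCAM, CDH5 and ALB, which mark epithelium, endothelium and liver, were at 0 in all libraries, and the leukocyte gene PTPRC reached 0.0717 CPM at most. The fibroblast gene LUM was counted at 29.5 to 72.6 CPM, while COL1A1, PECAM1, KRT5 and GFAP stayed at or below 2.78 CPM. The transcript of the vector's own gene did not separate the groups. HDAC8 had 383.8, 404.4 and 478.8 normalized counts with EV and 484.8, 445.5 and 473.7 with HDAC8, and the log2 fold change was 0.15 with an SE of 0.28 (DESeq2 adjusted p = 0.856). This transcript could therefore not check the group labels. Some of the markers did fall apart by label and others did not. MLANA had 8219, 8912 and 9189 counts with EV and 277, 293 and 342 with HDAC8. In these counts, which are not scaled for depth, TYR, DCT and SOX10 were likewise lower in each HDAC8 library than in any EV library. In CPM, SOX10 of HDAC8 3 was above that of EV 3, so its groups overlapped on that scale. MITF overlapped, with 16998, 17407 and 18206 counts in EV and 13231, 17497 and 14781 in HDAC8. PMEL overlapped in unscaled counts only, with 173018 in HDAC8 1 above 161930 in EV 1. The total count was 41852045 in HDAC8 1 and 34953618 in EV 1. In CPM, PMEL was lower in each HDAC8 library than in any EV library.

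The mitochondrial ribosome, or mitoribosome, translates the few proteins that mitochondrial DNA encodes, all of them parts of the respiratory chain and ATP synthase. Its small subunit holds the 12S rRNA (MT-RNR1) and its large subunit the 16S rRNA (MT-RNR2), both transcribed inside the organelle, while all of its proteins are encoded in the nucleus, translated in the cytosol and imported. Some of these proteins have a bacterial counterpart and others occur in mitochondria only. Melanomas rich in MITF are known for a high oxidative metabolism, which depends on the products of mitochondrial translation.

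A part of the members held the letters of a known motif close to their transcription starts, and these stretches are shown because the motif was more frequent in the members' windows than in those of all genes. A 300-base window around the RefSeq transcription start (GRCh38.p14), most of it upstream, was found for 69 of the 78 members. The letters AAGATGGC, the core of the motif of the zinc finger factor YY1, were searched on both strands and occurred in 20 of these 69 windows (29.0%), against 3.03% of 27305 windows of all genes and 4.70% of 12054 windows of the protein-coding genes tested here. In 15 of the 20 genes the match lay after the start and on the strand of the gene. The 8 members of this kind with the highest per-length level are written 5′ to 3′ on the gene's strand, with the motif in capitals.
MRPS30, chr5:44808950-44808977, plus strand: atcgcgggcaAAGATGGCggcggccagg
MRPL51, chr12:6493224-6493251, minus strand: ggtaaggcccAAGATGGCtgtcttcgcc
MRPS24, chr7:43869481-43869508, minus strand: cgcttggcccAAGATGGCggcctccgtg
MRPS18B, chr6:30617853-30617880, plus strand: ggcgtacgtcAAGATGGCggcgtctgta
MRPL20, chr1:1407261-1407288, minus strand: cgacccgggcAAGATGGCagcggcgctg
MRPL38, chr17:75904861-75904888, minus strand: ggccggagggAAGATGGCggcgccctgg
MRPS7, chr17:75261888-75261915, plus strand: gtggccagccAAGATGGCtgcccccgca
MRPS27, chr5:72320207-72320234, minus strand: ggtacgctccAAGATGGCtgcctccata

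Counted from 1 at the RefSeq start, the first base of the motif stood at position 14 in MRPS30, 22 in MRPL51, 20 in MRPS24, 24 in MRPS18B, 16 in MRPL20, 7 in MRPL38, 20 in MRPS7 and 17 in MRPS27. A match after the start on either strand was found in 21.7% of the members and in 3.05% of the tested protein-coding genes. The search covered 3 other motifs of factors known for housekeeping and mitochondrial genes. CCGGAAGT, bound by GABPA and other ETS factors, occurred in 15.9% of the members and 7.67% of the tested genes, GCATGCGC, bound by NRF1, in 8.70% and 4.97%, and the E-box CACGTG in 8.70% and 9.52%. No match of one motif shared bases with a match of another in the members' windows (0 pairs). Members with the YY1 letters had a median log2 fold change between HDAC8 and EV of -0.07 (n = 20) and members without them -0.11 (n = 49). MRPS18B carried both the NRF1 and the YY1 letters, while the windows of MRPS16, MRPL9 and MRPS6 held none of the 4 motifs. A match is a string of letters and not a measured binding site. AAGATGGC also holds the letters ATG, and whether matches after the start cover the translation start was not checked.

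Most members did not pass the test between HDAC8 and EV, and those that did were split in direction. All 78 were among the 26162 genes tested with DESeq2. At an adjusted p under 0.05, MRPS6, MRPS18B and MRPL15 rose in the HDAC8 libraries and MRPS16 and MRPL9 fell. In bulk RNA, fewer cells that express a gene and less of its RNA per cell cannot be told apart. These are 3 higher, against 6.63% of all genes with an adjusted p, and 2 lower, against 6.38%, so that 6.41% of the members passed in either direction and 13.0% of all genes did. With a log2 fold change of at least 0.58 required as well, as in the methods of the study, MRPS6 was called higher and MRPS16 and MRPL9 lower, against 5.57% and 5.44% of all genes. A further 9 members had an unadjusted p under 0.05, for 14 in all. The edgeR quasi-likelihood test and limma-voom each passed MRPS16, MRPL9 and MRPS6 and no other member.

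The log2 fold changes of the set were small and mostly within their errors. The median log2 fold change of the 78 members was -0.08 (interquartile range -0.35 to 0.09), with 51 below 0 and 27 above, and that of all tested genes was -0.00. The members lay between -0.73 for MRPS10 and 0.76 for MRPS6. The 95% interval of the log2 fold change lay inside ±1 for 58 members and inside ±0.58 for 17, so for the other members a change of the size of the threshold is not excluded by the interval. The EV and HDAC8 libraries did not overlap for 5 members that were higher in HDAC8, against 11.3% of all genes, and for 12 that were lower, against 12.7%. Of the 8546 protein-coding genes with a mean count in the members' range, 16.3% passed the adjusted p and 35.3% had groups that did not overlap, against 6.41% and 21.8% of the members.

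**Figure D1:**
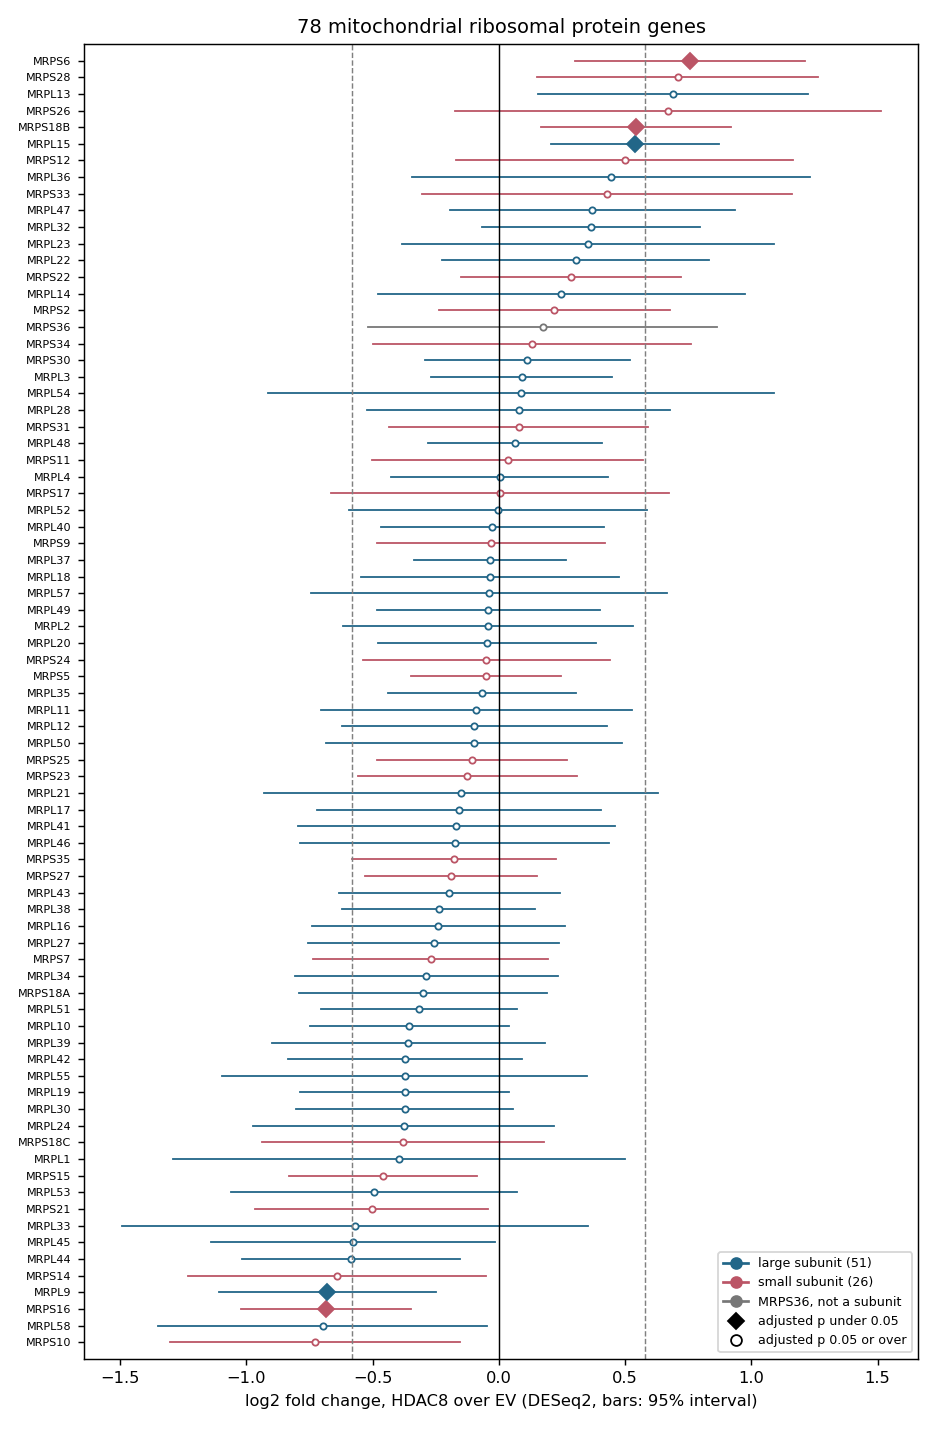
Log2 fold change of HDAC8 over EV with its 95% interval from DESeq2 for each of the 78 genes (rows), coloured by ribosomal subunit, with diamonds for the 5 genes past the adjusted p and dashed lines at a log2 fold change of 0.58 in size. The values run from -0.73 for MRPS10 to 0.76 for MRPS6, and most intervals cross 0.

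MRPS16, the counterpart of bacterial S16, which binds the small subunit rRNA during assembly, fell with the smallest adjusted p of the set. MRPS16 (ENSG00000182180, chromosome 10, 73248843 to 73252693, minus strand, GRCh38 in GENCODE 44) had 2683, 2850 and 2618 normalized counts with EV and 1476, 1889 and 1710 with HDAC8. All HDAC8 libraries lay below all EV libraries. The means were 2717 ± 120 and 1691 ± 207 (SD, n = 3 each), with a log2 fold change of -0.68 (95% interval -1.02 to -0.35, DESeq2 adjusted p = 0.00118). MRPS16 passed the adjusted p in all 15 refits with another test, scaling, filter or set of libraries, with log2 fold changes from -0.77 to -0.60, and no other member did.

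MRPL9, the counterpart of bacterial L9, which lies on the outside of the large subunit near the stalk of L1, also fell. MRPL9 (ENSG00000143436, chromosome 1, 151759647 to 151763496, minus strand) had 1258, 1307 and 1274 normalized counts with EV and 957.7, 754.8 and 682.8 with HDAC8. The EV libraries were close together and all lay above the HDAC8 libraries. The log2 fold change was -0.68 with an SE of 0.22 (DESeq2 adjusted p = 0.0192). In 5 of the 6 fits that left out 1 library MRPL9 missed the threshold, with adjusted p of 0.0977, 0.0929 and 0.0996 without EV 1, EV 2 or EV 3, 0.0642 without HDAC8 2 and 0.140 without HDAC8 3.

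MRPS6, the counterpart of bacterial S6 in the platform of the small subunit, had the largest rise. MRPS6 (ENSG00000243927, chromosome 21, 34073224 to 34143034, plus strand) had 1063, 1021 and 1055 normalized counts with EV and 1266, 2289 and 1748 with HDAC8. The HDAC8 libraries differed among themselves by more than the EV libraries did, and all lay above them. The log2 fold change was 0.76 with an SE of 0.23 (DESeq2 adjusted p = 0.0128). SLC5A3, which encodes a sodium/myo-inositol cotransporter, lies within MRPS6 on the same strand, and its normalized counts were 58100, 55156 and 62978 in EV and 75746, 105526 and 95458 in HDAC8 (log2 fold change 0.65, DESeq2 adjusted p = 1.26e-04). The counts of MRPS6 were not whole in any of the 6 libraries, which shows that reads were shared out between it and another row, and the part of SLC5A3 reads in its rise was not tested. MRPS6 missed the threshold when any library but HDAC8 1 was left out, with adjusted p from 0.0618 without EV 2 to 0.125 without HDAC8 2, and 0.0646, 0.0696 and 0.0663 without EV 1, EV 3 or HDAC8 3.

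MRPS18B and MRPL15 rose by less than the fold threshold. MRPS18B (ENSG00000204568, chromosome 6, 30617840 to 30626395, plus strand) had 1591, 2037 and 1414 normalized counts with EV and 2538, 2609 and 2202 with HDAC8. The groups did not overlap, and the log2 fold change was 0.54 with an SE of 0.19 (DESeq2 adjusted p = 0.0395, edgeR adjusted p = 0.0606). It missed the threshold without EV 1 (0.196), EV 3 (0.272), HDAC8 2 (0.121) or HDAC8 3 (0.0707). MRPL15, a core protein of the large subunit with a bacterial counterpart, is ENSG00000137547 on chromosome 8, 54135241 to 54148514, plus strand. Its libraries held 1379, 1407 and 1484 normalized counts with EV and 1987, 2154 and 2057 with HDAC8, and the groups did not overlap. The log2 fold change was 0.54 with an SE of 0.17 (DESeq2 adjusted p = 0.0160, edgeR adjusted p = 0.0536). It missed the threshold without EV 1 (0.121), EV 2 (0.0692), EV 3 (0.0754), HDAC8 2 (0.0625) or HDAC8 3 (0.0940).

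**Figure D2:**
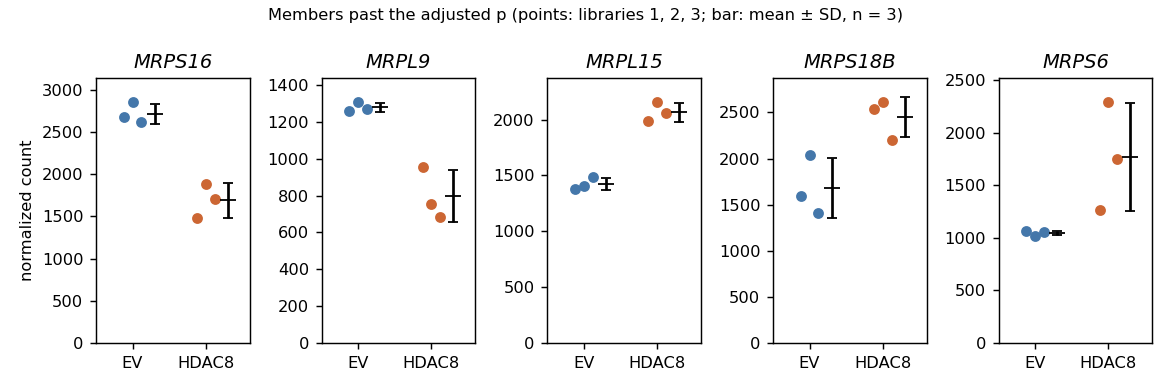
DESeq2 normalized counts (vertical axes, from 0) of the 5 members past the adjusted p in each library, with points for replicates 1, 2 and 3 of each group from left to right and the mean ± SD (n = 3) beside them. The groups do not overlap in any of the 5 panels, and the HDAC8 libraries of MRPS6 spread from 1266 to 2289.

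A further 12 members had groups that did not overlap without passing the adjusted p. MRPS28, a small subunit protein, and MRPL32, a large subunit protein, were higher in every HDAC8 library than in any EV library. The 10 lower ones were MRPS10, MRPS14, MRPS15 and MRPS21 of the small subunit and MRPL10, MRPL19, MRPL39, MRPL44, MRPL45 and MRPL51 of the large subunit. MRPS10 had normalized counts of 904.9, 842.4 and 997.9 in EV and 340.3, 687.2 and 631.6 in HDAC8, the log2 fold change furthest below 0 (log2 fold change -0.73, DESeq2 adjusted p = 0.0825). HDAC8 1 was well below the other HDAC8 libraries for this gene. MRPL44, a large subunit protein with a fold like that of ribonuclease III, had 1182, 1244 and 1052 in EV and 699.5, 894.1 and 725.2 in HDAC8 (log2 fold change -0.59, DESeq2 adjusted p = 0.0571). MRPS10 and MRPL44 both passed in the fit on genes with at least 10 counts in every library, in the fit normalized within bins of GC content, and without HDAC8 2.

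By subunit, 1 of the 51 large subunit members rose and 1 fell, and 2 of the 26 small subunit members rose and 1 fell. These are 3.92% and 11.5% past the adjusted p, against 13.0% of all genes. The median log2 fold change was -0.10 for the large subunit and -0.04 for the small subunit, and the latter changed sign with size factors from total counts (0.01) and without EV 2 (0.04). Of the 46 members classed as having a bacterial counterpart 2 rose and 2 fell, with a median of -0.06. Of the 31 classed as mitochondria-specific, MRPS18B rose and none fell, with a median of -0.11. That class held MRPS18A and MRPS18B although both are related to bacterial S18, so its only pass rests on this choice. In the large subunit 18 of the 21 mitochondria-specific members had a log2 fold change below 0, and none of the 21 passed the adjusted p, with 3 at an unadjusted p under 0.05. In the small subunit 4 of the 10 of that class were below 0. Whether these classes differed was not tested.

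The 3 proteins related to bacterial S18 differ in where they sit. MRPS18A sits in the large subunit despite its symbol, and MRPS18B and MRPS18C in the small subunit. MRPS18A had normalized counts of 777.0, 923.7 and 891.5 in EV and 643.9, 585.8 and 876.6 in HDAC8 (log2 fold change -0.30, DESeq2 adjusted p = 0.547). MRPS18C had 643.8, 477.2 and 734.9 in EV and 480.6, 529.5 and 414.9 in HDAC8 (log2 fold change -0.38, DESeq2 adjusted p = 0.478). The groups overlapped for both, and MRPS18B was the 1 paralogue of the 3 to pass. A difference between the paralogues in their response was not tested.

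MRPS30 also belongs to the large subunit despite its symbol. Its normalized counts were 2590, 2750 and 2709 in EV and 1980, 3276 and 3448 in HDAC8, so that the HDAC8 libraries lay on either side of the EV libraries (log2 fold change 0.11, DESeq2 adjusted p = 0.848). MRPL58, a peptidyl-tRNA hydrolase that rescues stalled ribosomes and is built into the large subunit, had 347.1, 593.0 and 560.5 in EV and 260.8, 316.5 and 348.5 in HDAC8. Its groups overlapped by the narrow margin between EV 1 and HDAC8 3 (log2 fold change -0.70, DESeq2 adjusted p = 0.167). MRPS36 is now known as a part of the 2-oxoglutarate dehydrogenase complex and was counted in neither subunit. It had 324.0, 339.0 and 275.8 in EV and 472.0, 313.4 and 272.2 in HDAC8, where HDAC8 1 alone was above the EV range (log2 fold change 0.17, DESeq2 adjusted p = 0.868).

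The stalk of the large subunit, where translation factors bind, is formed by MRPL10, MRPL11 and MRPL12, and none of them passed the test. MRPL10 had normalized counts of 1233, 1519 and 1318 in EV and 1134, 966.8 and 1080 in HDAC8, with groups that did not overlap (log2 fold change -0.36, DESeq2 adjusted p = 0.281). MRPL11 had 384.8, 424.9 and 401.9 in EV and 364.3, 472.1 and 302.7 in HDAC8 (log2 fold change -0.09, DESeq2 adjusted p = 0.935). MRPL12 had 1230, 1606 and 1089 in EV and 1735, 929.9 and 1003 in HDAC8 (log2 fold change -0.10, DESeq2 adjusted p = 0.912). HDAC8 1 had the highest MRPL12 count of all libraries and the other HDAC8 libraries had the lowest.

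As levels per transcript length, the members were expressed above most genes. On the TPM scale, in which counts are divided by the length of the canonical transcript and scaled to the library, the median member had 37.0 and the median tested protein-coding gene 13.2. MRPL37, a mitochondria-specific protein of the large subunit, was highest with 138.9 ± 9.51 TPM (SD over 6 libraries), followed by MRPS30 with 106.3 ± 23.7 and MRPL51 with 101.4 ± 14.1. The spreads of MRPS30 and MRPL51 cover the gap between them. MRPS33 with 6.52 ± 2.93, MRPL42 with 7.03 ± 1.62 and MRPL19 with 8.81 ± 1.05 were lowest, and MRPS33 and MRPL42 did not differ beyond their spread. The canonical transcripts of MRPS33 (4210 bases), MRPL42 (15557 bases) and MRPL19 (7825 bases) are far longer than the median member (1242 bases). The place of these 3 genes in this order therefore depends on the transcript chosen. MRPL37 had normalized counts of 3021, 3725 and 3267 in EV and 3331, 3306 and 3142 in HDAC8 (log2 fold change -0.03, SE 0.15, DESeq2 adjusted p = 0.953).

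Summed over all 78 genes, the level per library depended on the scale. The sum of normalized counts was 79021, 84092 and 79124 with EV and 75611, 78643 and 75825 with HDAC8. All HDAC8 libraries were lower by this measure. In CPM the sums were 2100 ± 85.1 in EV and 2054 ± 54.9 in HDAC8 (SD, n = 3 each), which differ by less than the spread. In TPM they were 3316 ± 214 in EV and 3611 ± 72.9 in HDAC8, which is the opposite direction. TPM adds up to the same total in each library. Of that total, the mitochondrially encoded rows took 222333 ± 31778 in EV and 149502 ± 45241 in HDAC8. TPM sums of the members without those rows were not taken, so this direction may not be one of the members themselves. The ratio of large to small subunit counts was 1.65, 1.64 and 1.71 in EV and 1.54, 1.64 and 1.66 in HDAC8, lowest in HDAC8 1.

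The counts of the rRNAs that these proteins assemble with varied far more between libraries than the protein transcripts did. MT-RNR1 took 0.00798% to 0.352% of the counts of a library and MT-RNR2 0.00316% to 0.556%. The paper's methods do not say whether rRNA was removed, so these counts may not follow the rRNA levels in the cells. MT-RNR1 had normalized counts of 43630, 80438 and 139205 in EV and 2857, 96914 and 44767 in HDAC8, and MT-RNR2 had 69618, 117365 and 219645 in EV and 1132, 161674 and 76562 in HDAC8. HDAC8 1 was far below every other library for both. Neither passed the test (log2 fold change -0.87 with SE 1.19 and DESeq2 adjusted p = 0.776 for MT-RNR1, -0.76 with SE 1.43 and DESeq2 adjusted p = 0.853 for MT-RNR2). The values rested on single libraries: the log2 fold change of MT-RNR1 was -0.31 without HDAC8 1, -0.37 without EV 3 and -1.88 without HDAC8 2, and that of MT-RNR2 was -0.19, -0.23 and -1.80. In limma-voom they were -1.85 (adjusted p = 0.0647) and -2.45 (adjusted p = 0.0716). All mitochondrially encoded rows together took 9.66% to 12.8% of the counts in EV and 4.46% to 7.94% in HDAC8. A fit without these rows passed the same 5 members.

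**Figure D3:**
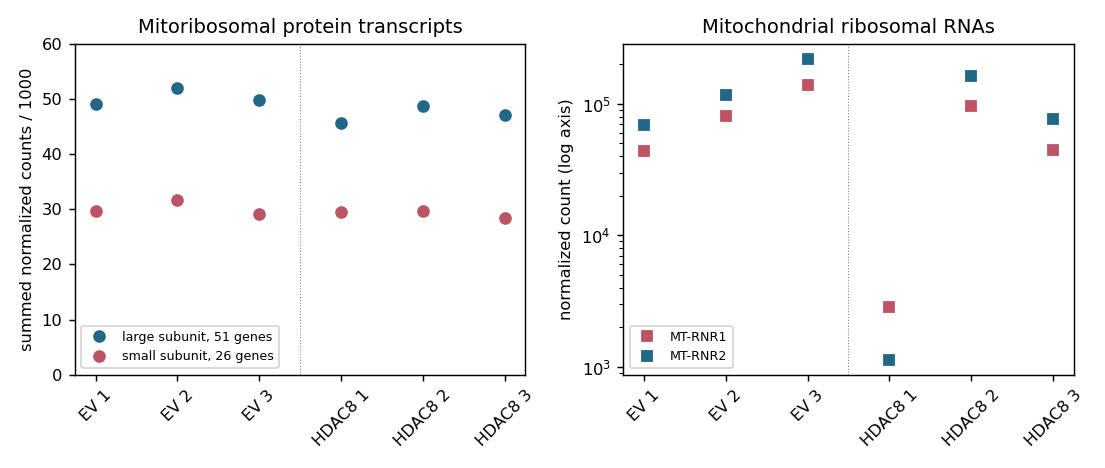
Left, summed DESeq2 normalized counts, divided by 1000, of the 51 large and 26 small subunit members in each library (from 0); right, normalized counts of the mitochondrial rRNAs MT-RNR1 and MT-RNR2 on a log axis. The sums are nearly level across the 6 libraries, while the rRNA counts of HDAC8 1 (2857 and 1132) lie far below the rest.

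HDAC8 1 differed from the other HDAC8 libraries along the GC content of the members. The log2 ratio of HDAC8 1 to the mean of HDAC8 2 and HDAC8 3 had a median of -0.26 over the 26 members of lowest GC content (34.8% to 44.6%), -0.06 over the middle 26 and 0.27 over the 26 of highest GC content (52.3% to 66.7%). Across the 78 genes, which share these 3 libraries and are not independent replicates, the ratio had a correlation of r = 0.49 with GC content. The log2 fold change between the groups had r = 0.07. All 5 members past the adjusted p were among the middle 26. Without HDAC8 1, MRPS28 passed in addition to these 5, and normalization within bins of GC content passed 9 members, the same 5 with MRPL13, MRPS28, MRPL44 and MRPS10.

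**Figure D4:**
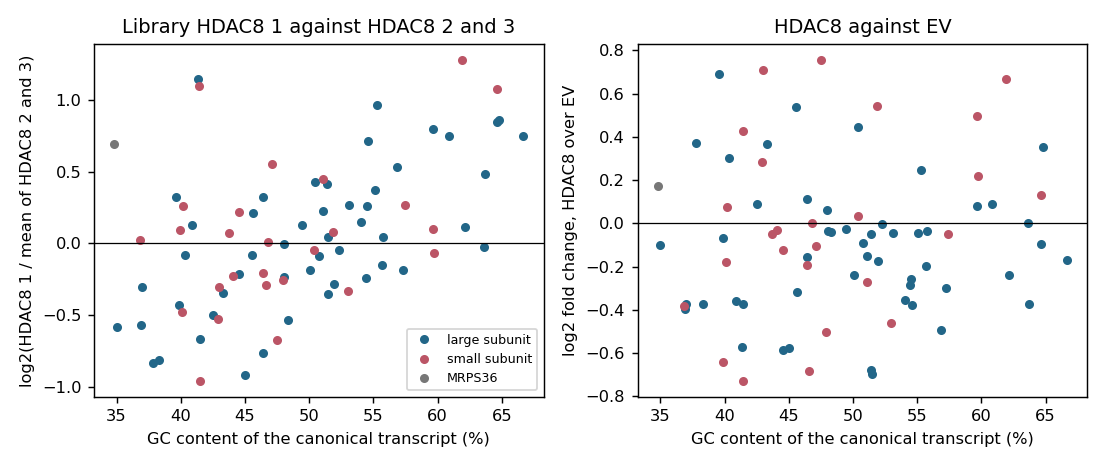
GC content of the canonical transcript (horizontal, %) of each member against, left, the log2 ratio of library HDAC8 1 to the mean of HDAC8 2 and 3 and, right, the log2 fold change of HDAC8 over EV. The left panel rises from a median of -0.26 in the low-GC members to 0.27 in the high-GC members, and the right panel shows no such slope (r = 0.07).

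The members were also set out by chromosome, after their values had been seen and with no test. All 3 members on chromosome 8, MRPL13, MRPL15 and MRPS28, had a log2 fold change above 0 (median 0.69). The other genes set beside them there were 522 genes of any type above a minimum mean count. Their median was 0.30, with 98 higher and 16 lower at the adjusted p. None of the 8 members on chromosome 1, the 8 on chromosome 2 or the 8 on chromosome 17 were above 0, with medians of -0.42, -0.37 and -0.26, where the other genes had medians of -0.10, -0.15 and -0.04. MRPL13 had normalized counts of 534.8, 499.7 and 748.7 in EV and 1109, 721.0 and 1049 in HDAC8, with HDAC8 2 inside the EV range (log2 fold change 0.69, DESeq2 adjusted p = 0.0751). MRPS28 had 366.0, 317.5 and 342.8 in EV and 483.1, 598.1 and 595.7 in HDAC8 (log2 fold change 0.71, DESeq2 adjusted p = 0.0816). The median log2 fold change of the genes near each member (any type above that minimum mean, within 2 Mb on either side) was also taken. It had the same sign as the member in 53 of 78 cases, with r = 0.54 across members in the same 6 libraries. Members that lie close together share neighbours, so the 78 cases are not independent. The same comparison was not made for other genes, so it does not show a trait of the members. MRPS16 on chromosome 10, where the other genes had a median of -0.09, fell by 0.68 on the log2 scale. The 46 genes within 2 Mb of MRPS16 had a median of -0.22, with 1 higher and 4 lower at the adjusted p.

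**Figure D5:**
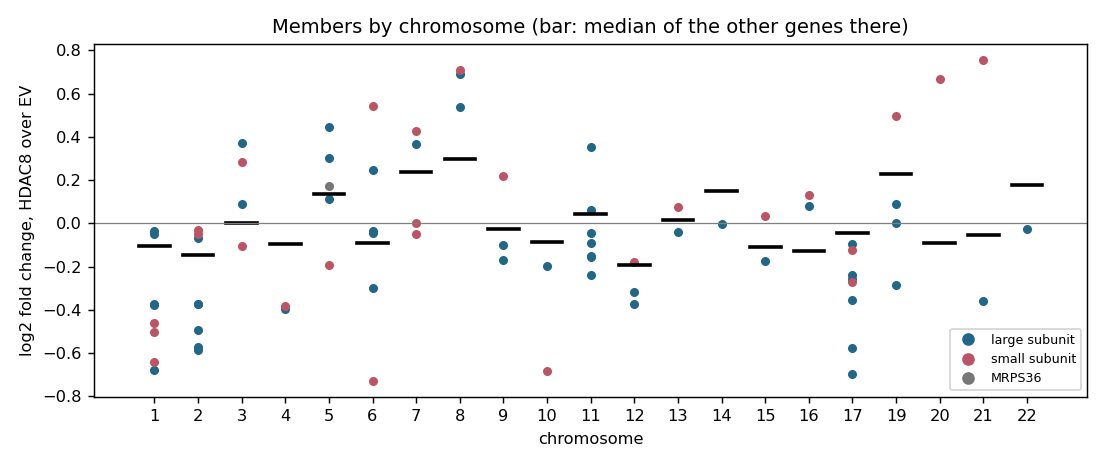
Log2 fold change of HDAC8 over EV (vertical axis) of each member, by chromosome (horizontal axis) and coloured by subunit. Black bars give the median of the other genes on that chromosome, of any type and above a minimum mean count. The 3 members on chromosome 8 lie above 0, and those on chromosomes 1, 2 and 17 lie below it.

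Many members lie head to head with another gene, so that the starts are close and the strands opposite. Such a protein-coding partner within 1000 bases was found for 27 of the 78 members (34.6%) and for 15.8% of all protein-coding genes tested. MRPL46 and MRPS11 are each other's partner, with starts 63 bases apart, and had log2 fold changes of -0.17 and 0.04. None of the 27 tested partners passed the adjusted p, against 16.8% of all protein-coding genes. MRPL46 and MRPS11 are counted among these partners and are members themselves. The partner of MRPS18B, PPP1R10, had a log2 fold change of 0.22 (DESeq2 adjusted p = 0.403), and that of MRPL9, OAZ3, had mean normalized counts of 32.1 and 14.1. Whether counting used the strand is not stated, so for members that overlap a gene on the other strand reads cannot be told apart. Besides SLC5A3, 4 genes that overlap a member passed the adjusted p, and most overlapping genes did not. Over all genes 13.0% passed, and the share among the overlapping genes was not taken. MRPS14 overlaps CACYBP, which fell (log2 fold change -0.79), MRPS22 overlaps COPB2, which rose (0.96), and MRPL47 overlaps ACTL6A, which rose (0.67), all on the other strand. MRPL28 overlaps TMEM8A on its own strand, which fell (-0.46). The members' log2 fold changes were -0.64 for MRPS14, 0.29 for MRPS22, 0.37 for MRPL47 and 0.08 for MRPL28. The first 3 had the sign of the overlapping gene, and none of these members passed. Whether the signs go together more often than for other genes was not tested.

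Copies of the members elsewhere in the genome took few of the counts. The table held 75 pseudogene rows named after 34 of the members, with 0.753% of the members' counts in all. They were large beside their gene for MRPS31 (49.9% of its own counts), MRPL45 (16.6%) and MRPL53 (6.02%), whose counts are uncertain for this reason. Of the 19 pseudogene rows in the fit, 0 passed the adjusted p in DESeq2, against 13.0% of all genes. Rows with low counts can lack an adjusted p and so cannot pass, and how many of the 19 had one was not counted. A count that was not whole, the mark of reads shared between rows, occurred in 25 members, and in 6 of them in every library.

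Other parts of mitochondrial translation were described from lists written from general knowledge. The 5 mitoribosomal proteins without an MRP symbol, among them DAP3 and PTCD3, gave 0 passes in either direction, and none had an unadjusted p under 0.05. Of 28 assembly factors 2 rose and 1 fell, which is 10.7% against 13.0% of all genes. MRM3, which methylates the large subunit rRNA, had normalized counts of 339.7, 436.1 and 269.9 in EV and 879.9, 679.0 and 521.6 in HDAC8 (log2 fold change 0.99, DESeq2 adjusted p = 0.0172). ERAL1, a chaperone of the small subunit rRNA, had 1191, 1364 and 1133 in EV and 751.6, 880.8 and 794.9 in HDAC8 (log2 fold change -0.60, DESeq2 adjusted p = 0.0353). Of 18 translation factors (5.56% passed) only MTRF1L, a release factor, passed, with a log2 fold change of -0.72 (DESeq2 adjusted p = 0.0238). MRM3 missed the threshold without EV 1 (adjusted p = 0.0869), EV 3 (0.135) or HDAC8 1 (0.0972), ERAL1 without any library but HDAC8 2 (0.0520 to 0.191), and MTRF1L without EV 1 (0.205), EV 3 (0.154) or HDAC8 1 (0.0574).

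The enzymes that charge tRNAs and process mitochondrial RNA were described in the same way. The list for tRNA charging held 22 genes, the aminoacyl-tRNA synthetases and the amidotransferase genes QRSL1, GATB and GATC. Of these 2 rose and 2 fell, a share of 18.2% against 13.0% of all genes and 16.8% of protein-coding genes. NARS2, which charges asparagine tRNA, had 2138, 1883 and 2113 in EV and 1047, 764.0 and 756.8 in HDAC8 (log2 fold change -1.26, DESeq2 adjusted p = 5.78e-08). FARS2, which charges phenylalanine tRNA, had 160.4, 238.2 and 94.6 in EV and 537.0, 314.4 and 369.2 in HDAC8 (log2 fold change 1.31, DESeq2 adjusted p = 0.0216), and missed the threshold without EV 1 (0.0907), EV 3 (0.143), HDAC8 1 (0.124) or HDAC8 3 (0.0703). Of 12 genes of mitochondrial DNA transcription and RNA processing 2 rose (16.7%), ELAC2, which trims the 3′ end of tRNAs, and POLRMT, the mitochondrial RNA polymerase. ELAC2 had 2482, 2538 and 2418 in EV and 4576, 3738 and 4313 in HDAC8 (log2 fold change 0.76, DESeq2 adjusted p = 1.85e-05). NARS2 and ELAC2 passed in each fit that left out 1 library.

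The cytosolic ribosome and the nuclear-encoded respiratory chain, whose genes were picked by symbol after the data had been seen, were set beside the mitoribosome. Of 82 cytosolic ribosomal protein genes 1 rose and 17 fell, with a median log2 fold change of -0.18, and in all 22.2% passed. Of 78 nuclear respiratory chain genes 1 rose and 10 fell, with a median of -0.25, and 14.1% passed. HDAC8 1 stood apart here too. The median log2 ratio of the cytosolic genes to their EV mean was 0.002 in HDAC8 1, -0.29 in HDAC8 2 and -0.29 in HDAC8 3. For the respiratory chain genes it was -0.17, -0.27 and -0.29. The shares over all genes and over protein-coding genes were 13.0% and 16.8%, and 6.41% of the mitoribosomal members passed. Their median standard errors were 0.15 and 0.21, smaller than the 0.26 of the mitoribosomal members, which have lower counts. A difference between the 3 sets was not tested.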

How the data were processed

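RNA-seq was made from 3 EV and 3 HDAC8 libraries of WM164, grouped and numbered by the labels. Trimmomatic, STAR and RSEM were the tools of the authors for trimming, alignment to the transcriptome and quantification. Their deposited values are RSEM's expected counts, not scaled between libraries, in which reads that fit several genes are shared out. Strand setting, build and annotation are not given in the sources used here, so positions, lengths and GC content come from GENCODE 44 (GRCh38), joined by Ensembl identifier. Expected counts were rounded to whole numbers.

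The 26162 genes whose counts summed to 10 or more were fitted with DESeq2 1.42.0 in R 4.3.3, with its size factors, a two-sided Wald test and Benjamini-Hochberg adjustment over the 21021 genes with an adjusted p. A gene was called at an adjusted p under 0.05 and a log2 fold change of 0.58 or more in either direction, as the study's methods give it (elsewhere the study names a p without correction), and counts at the adjusted p alone stand beside these. "Rose" and "fell" mean past the adjusted p. Normalized counts are counts over the DESeq2 size factor, and groups that do not overlap are those in which every library of one group lies above every library of the other. TPM is the count per canonical transcript length, rescaled to the same sum in each library. Alternatives were edgeR 4.0.16 and limma-voom (limma 3.58.1), other size factors and filters, a replicate block, no mitochondrially encoded genes, 20 GC bins, an adjusted p under 0.01 and each library left out in turn. The fits were tested on simulated data, where called changes had the right sign and fold changes were recovered in size, but most planted changes of 0.58 were missed by each tool, and a requirement on the share recovered, which the spread of these libraries did not meet, was dropped.

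The members and lists were chosen with earlier results of these data known, and the cytosolic ribosome, respiratory chain, chromosome, neighbour and GC comparisons after the values had been seen. Named genes are members past either threshold, the 3 highest and 3 lowest by TPM, the S18 paralogues, the stalk proteins, MRPS30, MRPS36 and MRPL58, the rRNAs, HDAC8 and the extremes of each list. MRPS10, MRPS28, MRPL13, MRPL44 and the members with overlapping genes were named after their values were seen. Subunit and class came from general knowledge. Between replicate libraries, chi-square per degree of freedom was 27.6 to 167.6, above sampling noise. Depth was 34741083 to 42041462 counts per library, and a count of 0 allows up to 3 counts, which covers counting error only.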

Additional observations from a re-analysis of the deposited data

How the results depend on the processing

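The number of members past the adjusted p depended on the settings more than their direction did. Beside 3 higher and 2 lower in the reported fit, edgeR and limma-voom each gave 1 higher with 2 lower, a filter of 10 counts in each library gave 5 and 4, normalization within GC bins gave 5 and 4, and an adjusted p under 0.01 gave 0 and 1. Past both thresholds, where the reported fit gave 1 higher and 2 lower, total-count size factors gave 3 higher, that filter 3 and 4, GC bins 4 higher and an adjusted p under 0.01 gave 0 and 1. Leaving out 1 library at a time gave from 0 to 4 higher and 1 to 4 lower at the adjusted p, and from 0 to 2 higher and 1 to 4 lower past both thresholds. The replicate numbers did not pair the libraries (correlations of deviations -0.03, -0.07 and 0.04), and with the replicate block 1 member was higher and 1 lower by either rule, MRPS6 and MRPS16.

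The median of the members stayed below 0 in every fit (-0.15 to -0.04), and that of all genes ran from -0.07 to 0.04. MRPL37 changed sign with total-count size factors (0.012). When 1 library was left out, MRPL12 ranged from -0.44 to 0.076, MRPL37 from -0.10 to 0.050, MRPL11 from -0.27 to 0.051, MRPS30 from -0.028 to 0.32, MRPS33 from -0.038 to 0.64 and MRPS36 from -0.10 to 0.33, and none of these passed in any such fit. Of 270 refitted values of single members 235 kept their direction and side of the threshold, 26 kept the direction but missed it and 9 changed sign. Counts of the other lists moved in 33 of 150 cases. The pseudocount alternative did not apply, since the table holds counts. The spread of 3 libraries a group limits what the test can show: the 95% interval lay inside ±0.58 for 17 of 78 members.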
